A study of Mus musculus with 12 samples.

Results

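The binding sites of HIF1A and of its partner ARNT were compared in cells kept at 20% O2, where 4 peak lists (2 for each antibody) could be set side by side. The lists came from chromatin immunoprecipitation and sequencing (ChIP-seq), in which DNA fixed to a protein is pulled down with an antibody and stretches with an excess of reads over an input library are called as peaks. All peaks of the 4 lists were taken, 27839 of 119057 in the 8 ChIP lists of the series, and merged into 16711 sites wherever they overlapped by at least 1 bp. A site was counted as having both subunits where all 4 lists held a peak (929 sites), as HIF1A only where both HIF1A lists and no ARNT list did (1708 sites), and as ARNT only where both ARNT lists and no HIF1A list did (399 sites). The remaining sites rested on some other combination of lists.

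The series held 12 samples of N1E115, an established mouse neuroblastoma line, labelled as brain tissue and as NOS1+ (NOS1 is the neuronal nitric oxide synthase). All cells were cultured for 3 days with 5% CO2 at ambient pressure, at 20% or at 4% O2. The 2 groups compared here were HIF1A replicates 1 and 2 and ARNT replicates 1 and 2 at 20% O2, with input libraries 4 and 5 behind them. The lists at 4% O2 served only as a further readout of the same sites. All groups share the same cells and medium, and no genotype, drug or untreated arm separates them. The labels name 1 cell line. Whether a replicate stands for a culture of its own is not in them, so each p-value speaks of the spread among these 4 samples alone, and that spread may be technical. The lists hold no expression values, so the labelled cell type could not be checked against marker genes, and they hold no read counts, so the depth is unknown.

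HIF-1 is a heterodimer of HIF1A and ARNT that recognises the core ACGTG or GCGTG. When oxygen is ample, prolyl hydroxylases mark HIF1A for destruction, whereas ARNT is made constantly and also pairs with other proteins of the bHLH-PAS family, such as the aryl hydrocarbon receptor. Genes of glycolysis, iron uptake and mitophagy are among the best known targets of HIF-1.

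The strongest sites that lay over a transcription start carried different letters in each class, and 7 promoter windows are printed to show them. Each window runs from 250 bases before to 50 bases after a start, from RefSeq on GRCm38.p6 (mm10), and is written 5′ to 3′ on the strand of its gene. They belong to the sites of each class with the highest mean percentile rank that overlap a window by at least 100 bp (3, 2 and 2 sites). The 3 windows of sites with both subunits belong to Narf (chr11:121236986-121237285, plus strand), which encodes a prelamin-binding protein, Ankrd37 (chr8:45999801-46000100, minus strand), an ankyrin repeat gene and known HIF target, and Sh3gl1 (chr17:56036610-56036909, minus strand), an endophilin gene whose site it shares with its neighbour Chaf1a. The 2 windows of HIF1A only sites belong to Cradd (chr10:95324088-95324387, minus strand), a death domain adaptor gene, and Tpgs1 (chr10:79669189-79669488, plus strand), which encodes a subunit of tubulin polyglutamylase and whose site it shares with Madcam1. The 2 windows of ARNT only sites belong to Top2a (chr11:99024140-99024439, minus strand), the DNA topoisomerase of dividing cells, and Rab5b (chr10:128696219-128696518, minus strand), an endosomal GTPase gene that shares its site with Pmel. Capitals mark the HIF cores ACGTG or GCGTG on either strand in all 7 windows. They also mark the box CCAAT in the windows with both subunits and with ARNT only, and the word ATGGCG or the word GACGTC in the HIF1A only windows.
Narf, both subunits: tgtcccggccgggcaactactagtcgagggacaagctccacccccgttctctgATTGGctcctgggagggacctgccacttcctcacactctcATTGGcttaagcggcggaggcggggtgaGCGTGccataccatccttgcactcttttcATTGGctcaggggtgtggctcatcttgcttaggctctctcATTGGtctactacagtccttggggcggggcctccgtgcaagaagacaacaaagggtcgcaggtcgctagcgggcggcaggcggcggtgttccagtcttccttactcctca
Ankrd37, both subunits: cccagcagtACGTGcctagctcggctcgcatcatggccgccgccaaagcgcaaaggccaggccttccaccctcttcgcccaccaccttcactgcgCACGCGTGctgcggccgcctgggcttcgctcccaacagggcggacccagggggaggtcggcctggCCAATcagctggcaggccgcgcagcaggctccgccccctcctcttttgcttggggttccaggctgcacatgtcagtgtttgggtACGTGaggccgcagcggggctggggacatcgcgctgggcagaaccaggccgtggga
Sh3gl1, both subunits: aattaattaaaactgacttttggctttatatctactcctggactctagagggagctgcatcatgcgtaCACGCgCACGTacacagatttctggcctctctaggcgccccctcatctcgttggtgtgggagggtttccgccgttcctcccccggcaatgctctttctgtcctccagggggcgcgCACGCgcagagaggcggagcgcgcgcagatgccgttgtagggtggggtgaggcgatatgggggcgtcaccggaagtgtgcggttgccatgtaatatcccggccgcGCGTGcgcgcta
Cradd, HIF1A only: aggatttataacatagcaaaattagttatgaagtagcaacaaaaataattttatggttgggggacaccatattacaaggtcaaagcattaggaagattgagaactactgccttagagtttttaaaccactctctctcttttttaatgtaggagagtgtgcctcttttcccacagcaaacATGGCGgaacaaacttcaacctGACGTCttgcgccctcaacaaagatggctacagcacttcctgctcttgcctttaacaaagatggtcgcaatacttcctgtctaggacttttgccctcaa
Tpgs1, HIF1A only: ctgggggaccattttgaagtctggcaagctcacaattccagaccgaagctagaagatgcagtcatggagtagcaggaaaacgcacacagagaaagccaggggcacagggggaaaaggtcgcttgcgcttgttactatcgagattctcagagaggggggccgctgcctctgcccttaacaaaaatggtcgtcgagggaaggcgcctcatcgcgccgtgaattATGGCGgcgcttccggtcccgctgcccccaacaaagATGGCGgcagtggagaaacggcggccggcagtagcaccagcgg
Top2a, ARNT only: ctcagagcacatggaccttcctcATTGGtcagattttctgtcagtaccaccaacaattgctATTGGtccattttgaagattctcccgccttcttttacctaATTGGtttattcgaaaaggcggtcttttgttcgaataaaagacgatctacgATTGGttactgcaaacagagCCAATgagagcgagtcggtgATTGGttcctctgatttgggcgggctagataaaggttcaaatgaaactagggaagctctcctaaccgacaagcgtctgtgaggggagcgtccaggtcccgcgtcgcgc
Rab5b, ARNT only: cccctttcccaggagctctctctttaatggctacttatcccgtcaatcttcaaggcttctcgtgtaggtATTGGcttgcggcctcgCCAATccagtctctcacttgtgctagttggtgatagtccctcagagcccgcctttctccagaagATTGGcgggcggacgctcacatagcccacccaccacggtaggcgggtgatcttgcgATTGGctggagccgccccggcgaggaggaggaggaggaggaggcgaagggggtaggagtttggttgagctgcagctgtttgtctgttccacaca

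Ankrd37 held 2 copies of ACGTG and 2 of GCGTG, Sh3gl1 held 1 and 3, and Narf held 0 and 1 beside 4 copies of CCAAT. The Cradd and Tpgs1 windows held neither core, but held 1 and 2 copies of ATGGCG. Neither core occurred in the windows of Top2a and Rab5b, which held 6 and 4 copies of CCAAT. These 7 windows are examples; the counts over all windows follow further down.

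HIF1A and ARNT peaks did not differ in number beyond the spread between lists of 1 antibody. HIF1A replicate 1 had 5393 peaks and HIF1A replicate 2 had 13386. ARNT replicate 1 had 7252 and ARNT replicate 2 had 1808. The longest list was thus a HIF1A list and the shortest an ARNT list, with the other 2 between them in the opposite order. HIF1A lists held 2.35 times as many peaks as ARNT lists by the geometric mean, a difference of 1.23 on the log2 scale (two-sided exact permutation test, p = 0.667, n = 2 per antibody), with a ratio of 0.744 between the lists numbered 1 and 7.40 between those numbered 2. With 6 arrangements of the labels the smallest p that can be reached is 0.333, so no comparison of the 2 antibodies over lists can pass a threshold of 0.05. HIF1A replicate 1 and both ARNT lists were called against input 4, and HIF1A replicate 2 against input 5. HIF1A replicate 2 also differs in form, since all of its 13386 entries are positions of 1 bp, here widened by 75 bp to each side, and per the series' design text its reads and those of its input combine a pair of sequencing runs. Antibody list and input cannot be told apart for HIF1A replicate 2.

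ARNT peaks lay at transcription starts more often than HIF1A peaks on the same input, while HIF1A peaks lay near tRNA genes more often. Within 1 kb of a start lay 8.10% of the peaks of HIF1A replicate 1 (95% Wilson interval 7.40 to 8.86) and 24.2% of those of HIF1A replicate 2 (23.4 to 24.9). The shares were 24.1% (23.1 to 25.1) in ARNT replicate 1 and 33.8% (31.7 to 36.1) in ARNT replicate 2. HIF1A replicate 2 and ARNT replicate 1 were nearly level, so the order of the antibodies rests on the other 2 lists. The mean share was 16.1% ± 11.4 for HIF1A against 29.0% ± 6.91 for ARNT (SD, n = 2 each), a difference of -12.8 points (two-sided exact permutation test, p = 0.667). Per the file headers, HIF1A replicate 1 and ARNT replicate 1 came from 1 lane of a flow cell, and within that lane the difference was -16.0 points. When each list was cut to its 1808 highest peaks, the near-start shares became 9.90%, 26.9%, 34.2% and 33.8% in the same order, and there both HIF1A values lay below both ARNT values. Wilson intervals here and below cover the counting of peaks or sites only.

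Transfer RNA genes are short genes read by RNA polymerase III. Peaks within 1 kb of one made up 2.74% of HIF1A replicate 1 (148 peaks) and 1.43% of HIF1A replicate 2 (191 peaks). They made up 0.303% of ARNT replicate 1 (22 peaks) and 0.0553% of ARNT replicate 2 (1 peak). Both HIF1A lists lay above both ARNT lists, with means of 2.09% ± 0.932 and 0.179% ± 0.175 (SD, n = 2 each) and a difference of 1.91 points (two-sided exact permutation p of 0.333, which is the lowest these 4 lists allow). Of 408 annotated tRNA genes, 167 and 199 had a HIF1A peak and 34 and 3 an ARNT peak within that distance. The share of peaks inside a gene was lower for HIF1A, at 50.6% and 53.9% against 57.0% and 57.6%, a difference of -5.04 points with the same exact permutation p of 0.333.

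HIF1A and ARNT shared many peaks, but each list shared more with the other list of its own antibody when lists of equal length were compared. Of the peaks of HIF1A replicate 1, 56.6% overlapped ARNT replicate 1 and 18.8% ARNT replicate 2. Of those of HIF1A replicate 2, 33.0% overlapped ARNT replicate 1 and 9.45% ARNT replicate 2. Seen from the other side, ARNT replicate 1 overlapped the HIF1A lists with 42.5% and 60.2% of its peaks and ARNT replicate 2 with 57.2% and 69.4%. These shares follow the length of the list that is searched, and so differ in each direction. When each list was cut to its 1808 highest peaks, 51.3% of HIF1A replicate 1 peaks had a peak in HIF1A replicate 2, and 53.3% of ARNT replicate 1 peaks had one in ARNT replicate 2. Across antibodies the shares were 32.5% (HIF1A replicate 1 in ARNT replicate 1), 34.9% (HIF1A replicate 1 in ARNT replicate 2), 28.6% (HIF1A replicate 2 in ARNT replicate 1) and 26.6% (HIF1A replicate 2 in ARNT replicate 2). The shares of HIF1A replicate 1, which has its input in common with both ARNT lists, were above those of HIF1A replicate 2.

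**Figure D1:**
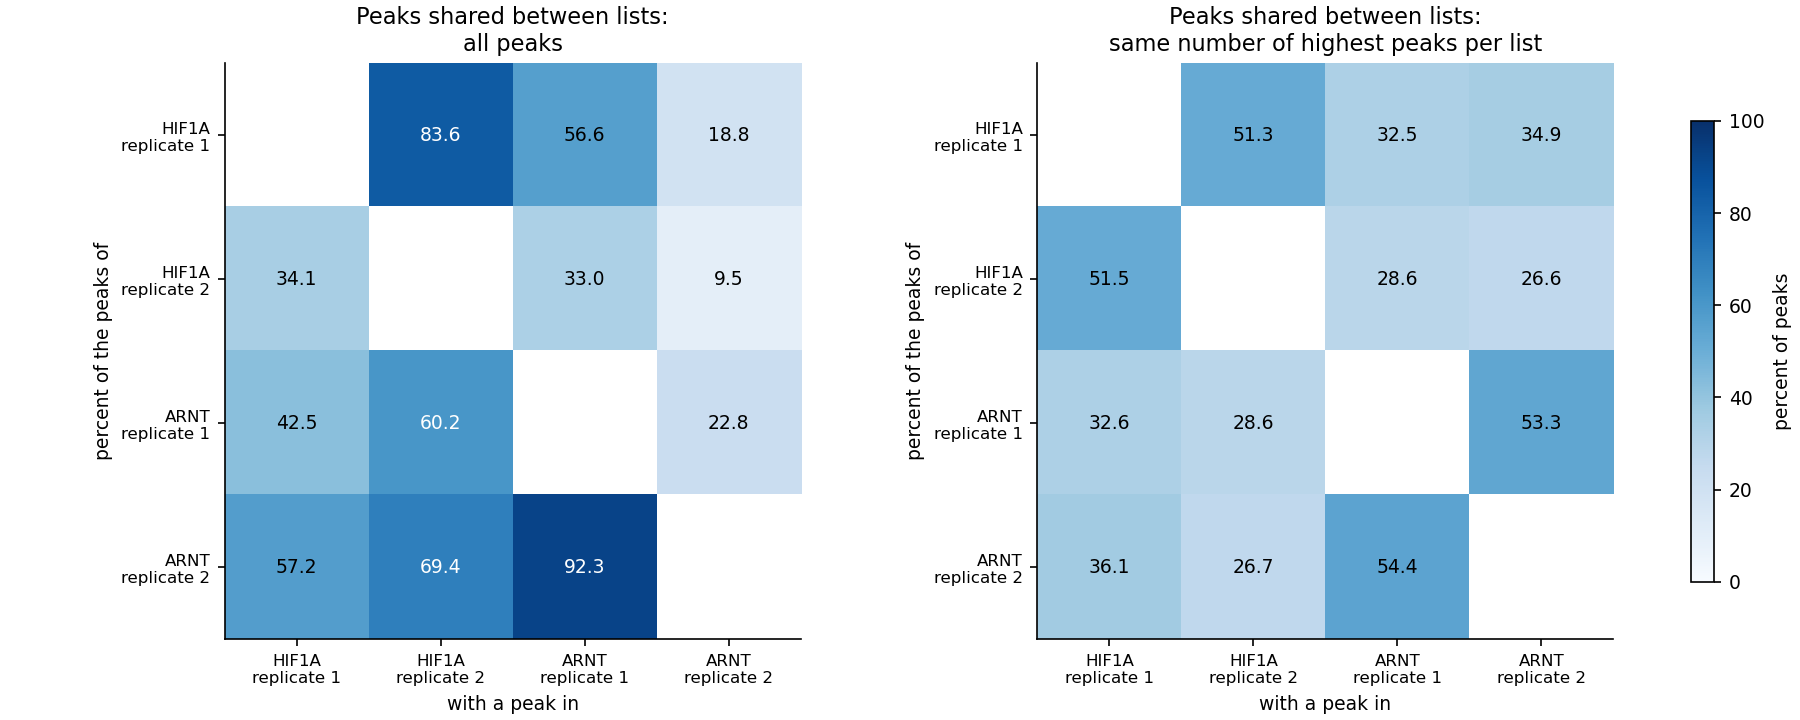
Percent of the peaks of each list (rows) that overlap a peak of another list (columns) by at least 1 bp, for all peaks (left) and for the 1808 highest peaks of each list (right). With equal lengths the cells between lists of 1 antibody hold 51.3% to 54.4%, and the cells between antibodies lie between 26.6% and 36.1%.

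Strong HIF1A peaks had an ARNT peak more often than weak ones, while in ARNT replicate 2 it was the weak peaks that more often had a HIF1A peak. Strength is the percentile rank of a peak's deposited score among the peaks of the same list (100 marks the top). Each list was divided by rank into 4 parts of about 25%. From the lowest to the highest part of HIF1A replicate 1, the share of peaks with an ARNT replicate 1 peak went from 43.9% to 73.5%. In HIF1A replicate 2 it went from 17.2% to 53.2%. For ARNT replicate 1 peaks the range was narrower, from 39.0% to 47.7% with HIF1A replicate 1 and from 59.6% to 63.6% with HIF1A replicate 2. In ARNT replicate 2 the course ran the other way: 67.3% of its lowest part and 40.2% of its highest had a peak of HIF1A replicate 1. With HIF1A replicate 2 the corresponding shares were 76.9% and 58.9%. The strongest ARNT peaks of that list were thus those least often accompanied by HIF1A. Of the 1647 regions found in both ARNT lists, 58.9% (95% Wilson interval 56.5 to 61.2) had a peak of HIF1A replicate 1 and 72.6% (70.4 to 74.7) one of HIF1A replicate 2.

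Ranks at shared sites tracked each other more closely within an antibody than between antibodies. Across sites, Spearman's rho was 0.59 between the HIF1A lists (4523 sites) and 0.65 between the ARNT lists (1644 sites). Between antibodies it was 0.43 for HIF1A replicate 1 with ARNT replicate 1 (3035 sites), 0.34 for HIF1A replicate 2 with ARNT replicate 1 (4385 sites), 0.31 for HIF1A replicate 1 with ARNT replicate 2 (1017 sites) and 0.19 for HIF1A replicate 2 with ARNT replicate 2 (1296 sites). Sites are no replicates, and they share libraries and, except for HIF1A replicate 2, the input. At the 858 sites in all 4 lists with exactly 1 peak from each, the centres of HIF1A replicate 1 and ARNT replicate 1 peaks lay a median of 17 bp apart, against 19.5 bp between the 2 ARNT lists and 35 bp between the 2 HIF1A lists. HIF1A replicate 1 and ARNT replicate 2 lay 22.25 bp apart, and HIF1A replicate 2 lay 35 and 27.5 bp from ARNT replicates 1 and 2. The centre was the deposited 1 bp position in HIF1A replicate 2 and the midpoint of the called region in the other lists. Distances with HIF1A replicate 2 are therefore not of the same kind as the others. The sites were chosen because their peaks overlap, so short distances are in part built in.

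The 16711 sites fell into 15 combinations of lists, and the ARNT only sites stood at starts while the other 2 classes mostly did not. The most frequent combination was HIF1A replicate 2 alone, with 7086 sites, followed by ARNT replicate 1 alone with 2150. Sites with both subunits made up 5.56% of all sites, HIF1A only sites 10.2% and ARNT only sites 2.39%. Of the ARNT only sites 70.7% lay within 1 kb of a start (95% Wilson interval 66.0 to 74.9), and the median distance to one was 17 bp. Of the sites with both subunits 8.29% did so (6.68 to 10.2), with a median distance of 53069 bp, and of the HIF1A only sites 11.4% (9.99 to 13.0), with a median of 32510.5 bp. Over all sites the share was 25.1%. The distance was not used to define the classes, but the classes share lists with the comparison above, and sites are not replicates.

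These counts depended on single libraries. Without ARNT replicate 2 there were 2552 ARNT only sites, of which 35.9% lay within 1 kb of a start, and 2770 sites with both subunits. Without HIF1A replicate 1 there were 8857 HIF1A only sites and 1196 with both subunits, of which 26.9% and 22.2% lay near a start. Without HIF1A replicate 2 there were 677 ARNT only sites, and without ARNT replicate 1 there were 3537 HIF1A only sites. In each of these 4 settings, and with equal list lengths, the ARNT only sites held the highest share near starts of the 3 classes. The 278 sites found in both ARNT lists and in HIF1A replicate 2, but not in HIF1A replicate 1, resembled the ARNT only sites in position, with 68.3% near a start.

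**Figure D2:**
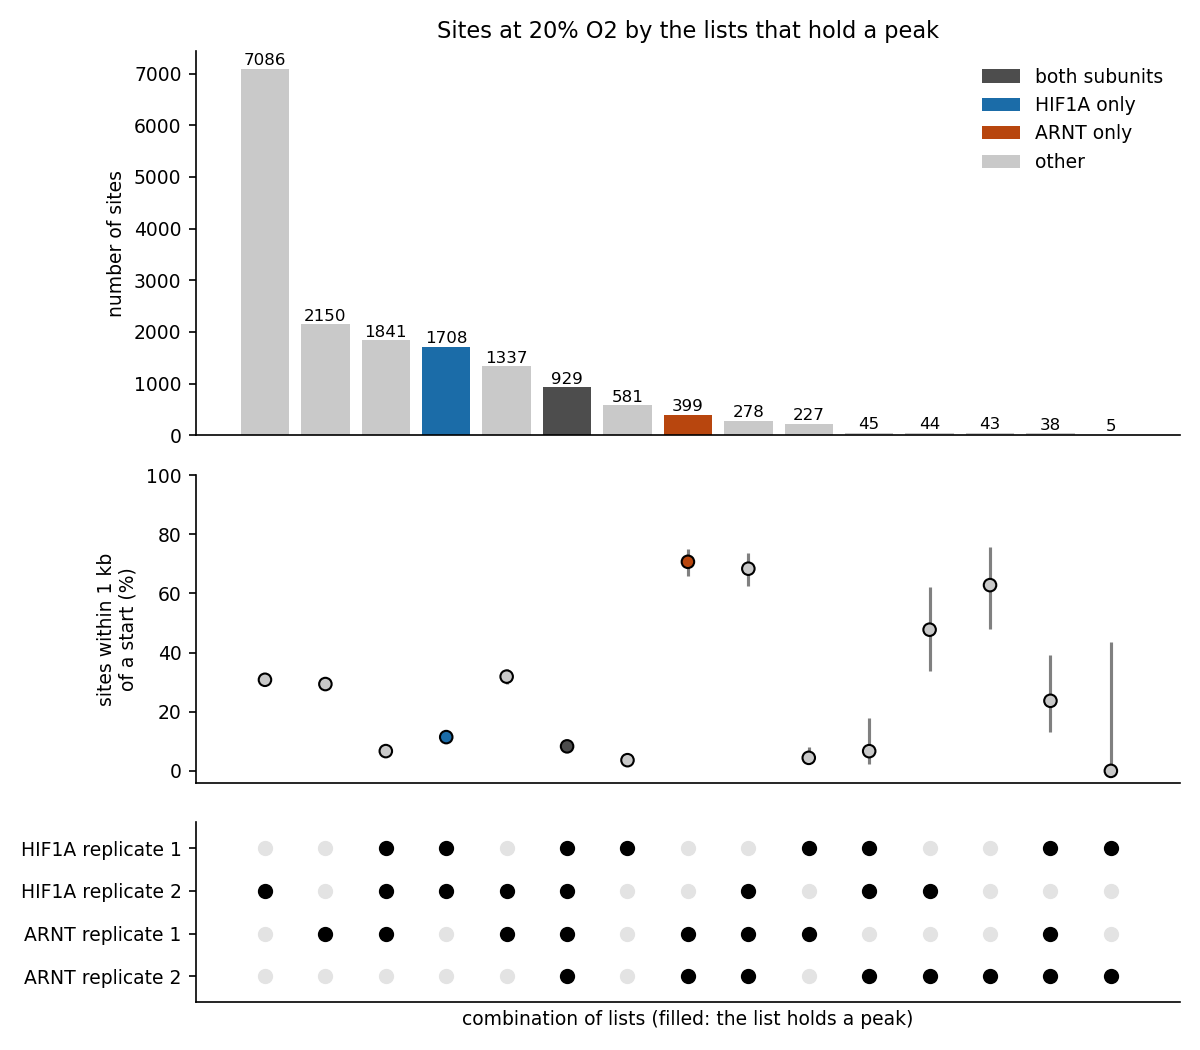
Number of sites (top) and percent of sites within 1 kb of a start with 95% Wilson intervals (middle) for each of the 15 combinations of the 4 lists (bottom, filled dots mark the lists with a peak). ARNT only sites (399, orange) lie at 70.7%, HIF1A only sites (1708, blue) at 11.4% and sites with both subunits (929, dark grey) at 8.29%.

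Most sites near tRNA genes were HIF1A only. Of the 1708 HIF1A only sites, 123 (7.20%, 95% Wilson interval 6.07 to 8.53) lay within 1 kb of a tRNA gene. Only 1 of the 929 sites with both subunits did (0.108%), and 0 of the 399 ARNT only sites, for which the Wilson interval reaches 0.954%. The other combinations held 75 of the 199 sites near a tRNA gene, of which 48 were in HIF1A replicate 2 alone and 18 in both HIF1A lists and ARNT replicate 1. Within the HIF1A only class, 71 of the 123 stood in the 25% of sites with the highest mean rank and 2 in the lowest 25%. The share within 1 kb of a protein-coding start was 22.5% in the highest part and 2.34% in the lowest. In the ARNT only class it followed no such course, with 79.0%, 64.0%, 67.0% and 72.7% from the highest to the lowest part.

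The highest sites with both subunits combined a pair of promoters with distant regions. The first was the Narf site (chr11:121236611-121237279), at ranks 99.9 and 100 in the HIF1A lists and 100 and 100 in the ARNT lists, the highest entry of 3 of the 4 lists. The Ankrd37 site (chr8:45999938-46000215) followed with 99.4, 99.99, 99.9 and 99.7. A region 76675 bp from the nearest start, that of the chromatin remodeller gene Chd2, was the third, with all 4 ranks of at least 99.4. The next pair lay side by side on chromosome 2 (chr2:98662249-98662423 and chr2:98662558-98662764), 2344080 and 2344389 bp from the nearest start (Lrrc4c). Exclusion lists for mm10, which hold regions of excess signal in many experiments, usually cover that stretch; none was used here, and its part in these ranks was not tested. The sixth lay inside Slc26a8 and nearest to the start of the splicing kinase gene Srpk1, the seventh 233122 bp from Fbxo8, and the eighth 16813 bp from Marchf11.

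The highest HIF1A only sites, which by the class rule have no ARNT peak, had ranks above 99 in both HIF1A lists. Those of Slmap (244 bp from a start, ranks 99.96 and 99.6), Cradd (99.9 and 99.7), Tpgs1 (99.8 and 99.7) and Szrd1 (99.5 and 99.1) lay at promoters. The other 4 of the first 8 lay 25722 to 82891 bp from the starts of Csf2ra, Nlrp4f, Vash1 and Gng4. Of the 8 highest ARNT only sites, 7 lay within 1 kb of a start. They were those of Top2a (ranks 99.97 and 99.9), Rab5b (99.9 and 99.5), Flad1, which encodes FAD synthase (99.9 and 99.4), the hydrolase gene Abhd2 (99.8 and 99.3), the zinc finger gene Sp2 (99.8 and 99.4), Ube2c, which encodes a ubiquitin-conjugating enzyme of mitosis (99.6 and 99.3), and Nfatc2ip (99.8 and 98.9). The first of all, 5572 bp from Srbd1, had 99.99 and 99.9. All of these 8 sites ranked among the highest of both ARNT lists, and by the class rule they have no HIF1A peak.

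Within the 929 sites that had both subunits, the balance between HIF1A and ARNT also varied with position. Ranked among these sites alone, both HIF1A ranks lay above both ARNT ranks at 217 sites (23.4%) and below them at 193 (20.8%). Of the first 3.23% (7 sites) and of the second 19.7% (38 sites) lay within 1 kb of a start, against 8.29% of all 929. With ranks from the whole lists the numbers were 427 (46.0%) and 53 (5.71%), with 2.34% and 43.4% near a start. The split thus depends on the ranking, while the order of the near-start shares did not. The groups were formed from these ranks and the split itself is a description. With 2 ranks per antibody, some sites would separate in this way without any difference between the antibodies.

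By whole-list ranks, the widest gaps in favour of HIF1A lay far from starts. The first, 116503 bp from the small GTPase gene Arl4a, had HIF1A ranks of 84.8 and 90.2 and ARNT ranks of 5.64 and 1.11. A site 528824 bp from the homeobox gene Meis1 had 80.2 and 86.2 against 2.48 and 0.636. Sites inside Tcerg1l, the zinc finger gene St18 and Tanc1, and others nearest to Map9 and Fam13c, were also among the 8. All of the 8 lay more than 2 kb from a start.

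Of the 8 widest gaps in favour of ARNT, 4 lay at promoters. The Nup133 promoter, of a nuclear pore gene, had ARNT ranks of 99.3 and 97.0 and HIF1A ranks of 2.70 and 13.6. At Cic, which encodes a transcriptional repressor, they were 99.7 and 98.1 against 1.59 and 26.7, although other peaks within 5 kb of a Cic start reached HIF1A ranks of 96.2 and 98.4. At the promoter of Rab11b, a recycling endosome GTPase gene, they were 91.1 and 59.0 against 4.22 and 12.3. Exosc4, of the RNA exosome, had 98.5 and 91.6 against 7.95 and 75.3, and shares its site with Oplah. The remaining 4 lay 5822 to 40067 bp from Septin8, Nfic, Hs6st1 and the growth cone gene Gap43.

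**Figure D3:**
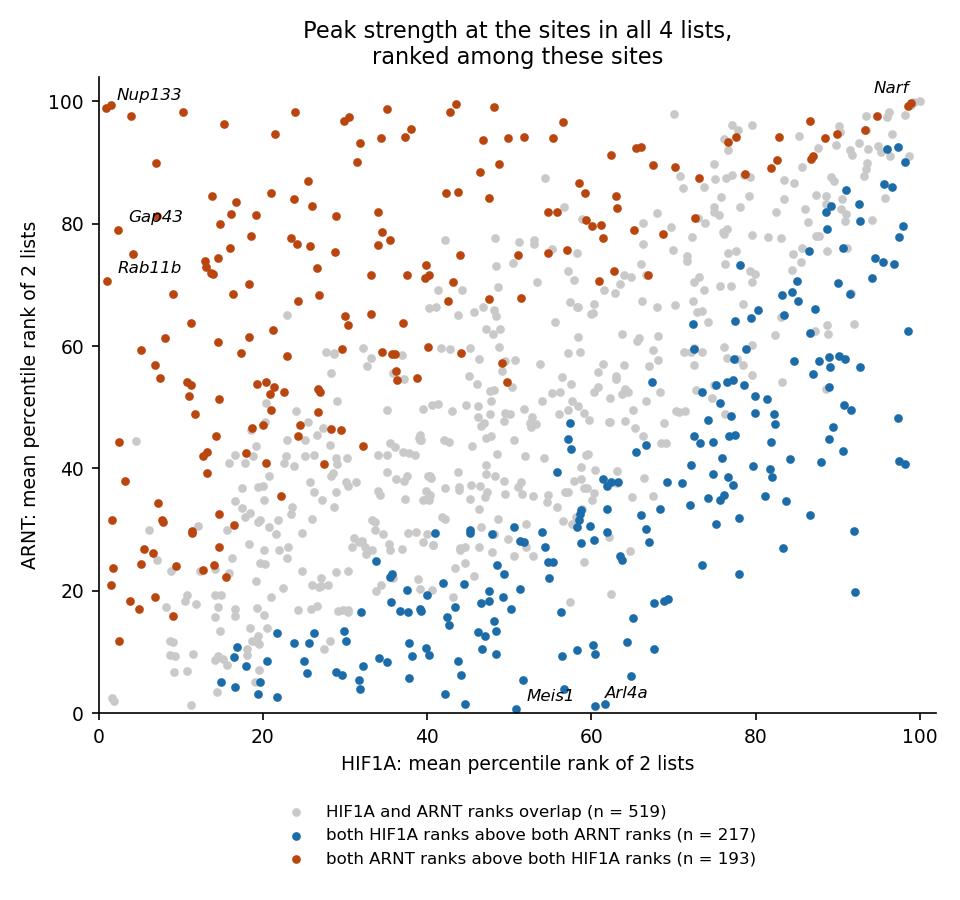
Mean percentile rank of the 2 HIF1A lists (x axis) against that of the 2 ARNT lists (y axis) at the 929 sites found in all 4 lists, ranked among these sites. Blue points (217) have both HIF1A ranks above both ARNT ranks, orange points (193) the reverse; Narf stands at the top of both axes and Nup133 at a high ARNT and a low HIF1A rank.

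Sequence windows over starts differed between the classes in letters that the class rule did not use. Both strands of 21045 promoter windows of 17274 protein-coding genes were searched, and a window counted for a class where a site of it overlapped. This gave 66 windows with both subunits, 144 with HIF1A only and 272 with ARNT only, and 3216 windows with a peak of any list. ACGTG occurred in 21.1% of all windows and in 40.9% of those with both subunits (95% Wilson interval 29.9 to 53.0). It occurred in 25.7% of HIF1A only windows (19.3 to 33.4) and in 18.8% of ARNT only windows (14.6 to 23.8). The palindrome CACGTG, the E-box read by many bHLH proteins and a string that contains ACGTG, ran in parallel with 7.91%, 21.2%, 12.5% and 4.78%. Of the 3 classes, the one with both subunits thus held ACGTG most often. Windows of other combinations reached the same level, with 41.1% for HIF1A replicate 2 alone and 45.1% for HIF1A replicate 2 with ARNT replicate 1, and windows with any peak stood at 35.5%. The other core, GCGTG, ran differently, with 38.8% of all windows, 45.5% with both subunits, 52.1% with HIF1A only, 49.3% with ARNT only and 57.7% of windows with any peak. ACGTG or GCGTG together occurred in 49.8% of all windows, 68.2%, 62.5% and 58.1% of the 3 classes, and 71.4% of windows with any peak, so that no class exceeded the windows with any peak. These sets had, in the same order, median GC contents of 56.7%, 59.8%, 58.3%, 58.3% and 60.7%. The AP-1 site TGANTCA was found in 7.04% of all windows, 6.06%, 6.25% and 4.04%.

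A scan of all 2080 words of 6 letters, read on both strands, ranked words by the difference in share between a class and the other windows with a peak. The words and the 3 motifs that follow were chosen after these values were seen. For ARNT only windows the first 6 words all contain at least 4 letters of CCAAT or its complement ATTGG, led by ATTGGC with 51.5% against 25.2%. For windows with both subunits the first 6 words, led by CTCCGC with 62.1% against 44.7%, held neither HIF core. CCAAT, the box read by the factor NF-Y, occurred in 69.5% of ARNT only windows (63.8 to 74.7), in 54.5% of windows with both subunits (42.6 to 66.0), in 47.2% of HIF1A only windows and in 38.5% of all windows. For HIF1A only windows the leading word was ATGGCG, in 45.1% (37.2 to 53.3) against 10.96% of all windows, 22.7% with both subunits and 18.8% with ARNT only. GACGTC, the centre of the cAMP response element, occurred in 29.2% of HIF1A only windows (22.4 to 37.1), 21.2% with both subunits, 7.72% with ARNT only and 5.39% of all windows. Windows with any peak held CCAAT in 48.4%, ATGGCG in 21.4% and GACGTC in 13.1%, so the contrasts with all windows are in part shared by windows with any peak. A match is a description of the letters and no evidence of which protein was there.

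CCAAT in ARNT only windows, and ATGGCG and GACGTC in HIF1A only windows, were denser inside the called sites than beside them. The other leading words were not measured in this way. The 3 motifs were chosen from these same windows, so the densities are a description. Within ARNT only windows, CCAAT occurred 9.27 times per kb inside the site and 2.34 times outside it. At the same positions relative to the start, all windows held 2.06 and 1.67 per kb. In HIF1A only windows ATGGCG occurred 3.49 times per kb inside and 0.718 outside (all windows: 0.391 and 0.42), and GACGTC 2.10 and 0.179 (all windows: 0.204 and 0.178). In windows with both subunits ACGTG occurred 3.28 times per kb inside and 2.50 outside, against 1.18 and 1.04 in all windows, a smaller contrast. The other core, GCGTG, occurred 3.28 times per kb inside and 2.10 outside (all windows: 2.16 and 1.86). CCAAT in the same windows occurred 4.60 times per kb inside and 1.71 outside (all windows: 2.06 and 1.64), so its higher density inside sites was not limited to ARNT only windows. Sites far from starts, the larger part of the both and HIF1A only classes, were not searched, since no genome sequence was used here.

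The same sites were looked up in the 4 lists at 4% O2, which the classes did not use. A peak of HIF1A replicate 1 at 4% O2, a list of 42701 peaks, lay at 99.2% of sites with both subunits, 93.4% of HIF1A only sites and 69.9% of ARNT only sites. For HIF1A replicate 2 the shares were 74.3%, 45.3% and 17.3%. The HIF1A only sites thus exceeded the ARNT only sites in both. For ARNT replicate 1 the shares were 96.9%, 63.2% and 91.2%, and for ARNT replicate 2 they were 22.6%, 12.8% and 42.4%. In each ARNT list at 4% O2 the ARNT only sites were found more often than the HIF1A only sites. Over all sites the shares were 87.2%, 43.1%, 70.2% and 26.9%, so sites with both subunits lay above this level in 3 lists and below it in ARNT replicate 2. The 95% Wilson intervals of the HIF1A only and ARNT only classes did not overlap in any of the 4 lists. They cover the counting of sites only, sites are not replicates, and each list comes from 1 sample. The 2 classes also differ in position, with 11.4% and 70.7% of sites near a start.

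Genes were assigned a peak where one lay within 5 kb of a start. The rank of a gene is that of its strongest such peak, taken separately in each list. The peaks and ranks of 1 gene can therefore come from different sites and do not measure joint binding at 1 place. At the Ddit4 site in all 4 lists, HIF1A replicate 2 ranked 88.9, against 99.8 for the gene. At the Srebf1 site in all 4 lists it ranked 60.7, against 97.1 for the gene. Of 21631 protein-coding genes, 3.84% had a peak in HIF1A replicate 1, 19.3% in HIF1A replicate 2, 11.9% in ARNT replicate 1 and 4.1% in ARNT replicate 2. All 4 lists held a peak at 181 genes (0.837%), both HIF1A lists and no ARNT list at 304 (1.41%), and both ARNT lists and no HIF1A list at 312 (1.44%). These shares are the level against which the counts below are to be read. No score or count for a gene list was tested, and members that share a promoter share its peak. The gene counts with single libraries left out ranged from 308 to 2617 for HIF1A only and from 321 to 1026 for ARNT only, the highest without HIF1A replicate 1 and without ARNT replicate 2. Those with both subunits ranged from 185 to 508, the highest without HIF1A replicate 1.

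Glycolysis genes had a peak more often than all genes in each of the 4 lists. Of its 26 genes, 7 had a peak in HIF1A replicate 1, 25 in HIF1A replicate 2, 14 in ARNT replicate 1 and 7 in ARNT replicate 2. The same 7 genes were the ones with all 4 lists: Eno1, Pgam1, Pfkl, Gapdh, Pgk1, Slc16a3 and Pkm. None of the 26 was HIF1A only or ARNT only by the rule above. Standing above all genes in each list was not particular to glycolysis. The lists of mitophagy and mitochondria, oxidative phosphorylation and lysosomal genes did so too, while AHR targets did not. Eno1, which encodes enolase, had ranks of 89.7 and 99.9 for HIF1A and 97.9 and 88.1 for ARNT. Pgam1, of phosphoglycerate mutase, had 81.8 and 99.99 against 97.4 and 94.1. Pgk1, of phosphoglycerate kinase, had 27.1 and 99.97 against 97.9 and 73.4. HIF1A replicate 2 gave these genes ranks near the top of its list, whereas HIF1A replicate 1 ranked Pgk1, Pkm (19.1) and Slc16a3 (44.4) in its lower part. Over the members with a peak, HIF1A had median ranks of 78.8 and 99.6 and ARNT of 83.9 and 73.4, against 55.8, 54.5, 61.3 and 63.0 over all genes with a peak. Ldha (99.7), the glucose transporter gene Slc2a1 (97.0) and 9 others had a peak in HIF1A replicate 2 alone.

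Other known HIF targets also had a peak in HIF1A replicate 2 more often than in the other 3 lists. All genes did too, at 19.3% against 3.84% in HIF1A replicate 1 and 11.9% and 4.1% in the ARNT lists. HIF1A replicate 2 is the longest list, and this order is not particular to HIF targets. Ankrd37 was the only member of the 15 oxygen sensing genes with a peak in HIF1A replicate 1 or in either ARNT list, while 7 had one in HIF1A replicate 2. Egln3, a prolyl hydroxylase gene, had no peak within 5 kb in any of the 4 lists, nor did Hif1a, Arnt or Nos1. Farther out, 3 sites in all 4 lists had Egln3 as their nearest gene, and the strongest (chr12:54191998-54192237) had HIF1A ranks of 71.9 and 99.96 and ARNT ranks of 98.6 and 96.0. Vegfa, of the angiogenic growth factor, had a peak in HIF1A replicate 2 alone, at rank 49.6. Bnip3, of mitophagy, had 99.7 in HIF1A replicate 2 and 9.91 in ARNT replicate 1. In the list of mitophagy and mitochondria, 2, 12, 5 and 4 of 14 genes had a peak in HIF1A replicates 1 and 2 and ARNT replicates 1 and 2. Ddit4, an inhibitor of mTOR signalling, had all 4 (22.7 and 99.8 against 96.9 and 89.4), as had the transferrin receptor gene Tfrc (58.7 and 99.5 against 9.91 and 49.5). Epo, of erythropoietin, had HIF1A replicate 2 (99.7) and both ARNT lists (74.0 and 76.2), and P4ha1, a collagen prolyl hydroxylase gene, likewise had 99.98, 96.2 and 87.5. Ndufa4l2 had 99.2, 90.9 and 79.1 in the same 3 lists. In the list of angiogenesis, pH and iron, 2, 10, 5 and 3 of 19 genes had a peak. AHR targets, the best known genes of another ARNT dimer, had a peak for 0 and 2 of 10 genes in the HIF1A lists and for 0 in both ARNT lists. These counts lay near the shares of all genes given above, and a list of 10 genes cannot show a lack of ARNT peaks.

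**Figure D4:**
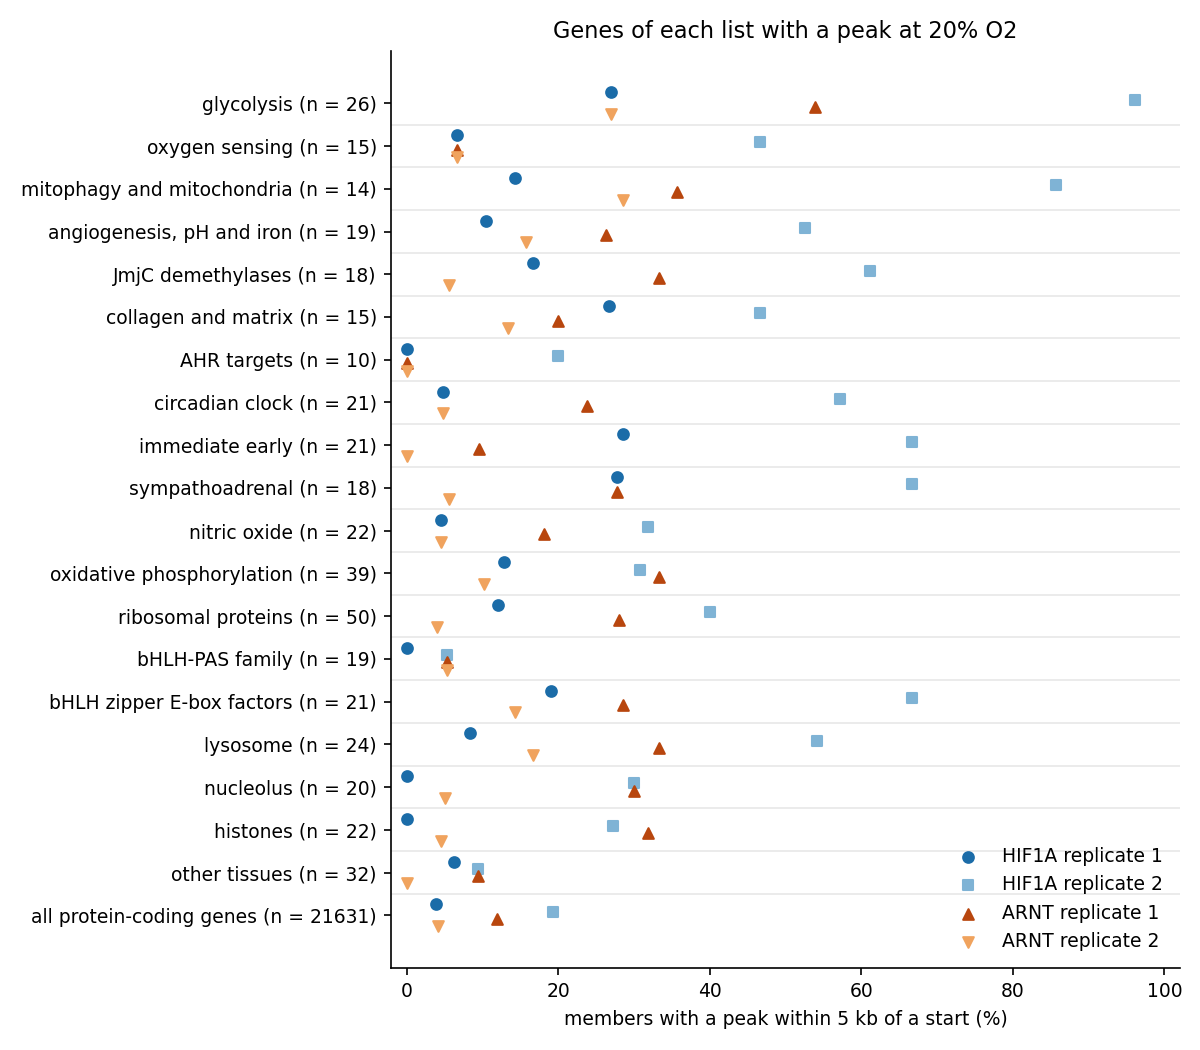
Percent of the members of each of 19 gene lists, and of all 21631 protein-coding genes, with a peak within 5 kb of a start in each of the 4 lists at 20% O2. Glycolysis has the highest share in HIF1A replicate 2 (25 of 26 genes), and immediate early genes are at 28.6% and 66.7% in the HIF1A lists and 9.52% and 0% in the ARNT lists.

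Immediate early genes, the first to respond to many stimuli, had HIF1A peaks more often than all genes, with ARNT peaks near the level of all genes. Of 21 genes, 6 and 14 had a peak in HIF1A replicates 1 and 2, and 2 and 0 in ARNT replicates 1 and 2, where all genes stood at 3.84%, 19.3%, 11.9% and 4.1%. HIF1A only were 5 of the 21, where 1.41% of all genes were: Jund (ranks 98.2 and 99.4, at a site shared with Iqcn), the phosphatase gene Dusp1 (95.1 and 98.2), Jun (95.6 and 94.9), Atf3 (69.3 and 89.8) and Btg2 (63.6 and 90.5). Arc, of the synaptic cytoskeleton, had both HIF1A lists (44.5 and 80.1) and ARNT replicate 1 (28.0). Ier2 had HIF1A replicate 2 (69.1) and ARNT replicate 1 (24.2). No member was ARNT only. The HIF1A shares of 28.6% and 66.7% were not particular to this list. Genes of the sympathoadrenal lineage stood at 27.8% and 66.7%, and E-box factors with a zipper at 19.0% and 66.7%. Those lists had more ARNT replicate 1 peaks, at 27.8% and 28.6% against 9.52%. Nucleolar and histone genes had no peak in HIF1A replicate 1.

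Among the genes of JmjC proteins, which include oxygen-dependent enzymes that remove histone methyl groups, 3 and 11 of 18 had a HIF1A peak and 6 and 1 an ARNT peak. Kdm6b (51.3 and 99.7) and Phf8 (59.2 and 98.4) were HIF1A only. Kdm4b had HIF1A replicate 2 (99.8) and both ARNT lists (92.8 and 63.8), and Kdm3a both HIF1A lists (38.9 and 99.8) and ARNT replicate 1 (58.1). The collagen and matrix list had 4 and 7 of 15 genes with a HIF1A peak and 3 and 2 with an ARNT peak. P4ha2 (53.2 and 99.6), Plod2 (49.5 and 99.0) and Loxl1 (73.7 and 77.0), all of collagen modification or crosslinking, were HIF1A only within 5 kb, while Loxl3 had all 4 lists at 15.4 and 86.6 against 21.6 and 13.9. Beyond that distance, a site nearest to P4ha2 (chr11:54169793-54170184) was in all 4 lists at 95.9 and 96.7 against 97.1 and 82.4.

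Nos3, of endothelial nitric oxide synthase, was HIF1A only (83.7 and 96.6), the single such gene among 22 of nitric oxide signalling, of which 1 and 7 had a HIF1A peak and 4 and 1 an ARNT peak. Dynll1, whose product is a dynein light chain that binds NOS1, had high ARNT ranks (98.7 and 98.4), a lower rank in HIF1A replicate 2 (52.6) and no peak in HIF1A replicate 1. Genes of the sympathoadrenal lineage, from which neuroblastoma arises, had a HIF1A peak for 5 and 12 of 18 genes and an ARNT peak for 5 and 1. Dbh (1.29 and 76.5) and Gata2 (27.4 and 34.0) were HIF1A only, and Slc18a1 had all 4 lists.

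Of 39 oxidative phosphorylation genes, 5 and 12 had a HIF1A peak and 13 and 4 an ARNT peak. Both subunits were called at 2 of them, HIF1A only at 1 and ARNT only at 2. Atp5b, of the ATP synthase (ranks 99.8 and 98.7), and Cyc1, cytochrome c1 (99.1 and 95.5), were ARNT only. Ndufa10, of complex I (93.8 and 90.0 against 97.4 and 78.5), had all 4 lists, and Ndufs7 (69.3 and 89.6) was HIF1A only. Ndufb5 had both HIF1A lists (97.5 and 93.4) and ARNT replicate 1 (94.6).

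**Figure D5:**
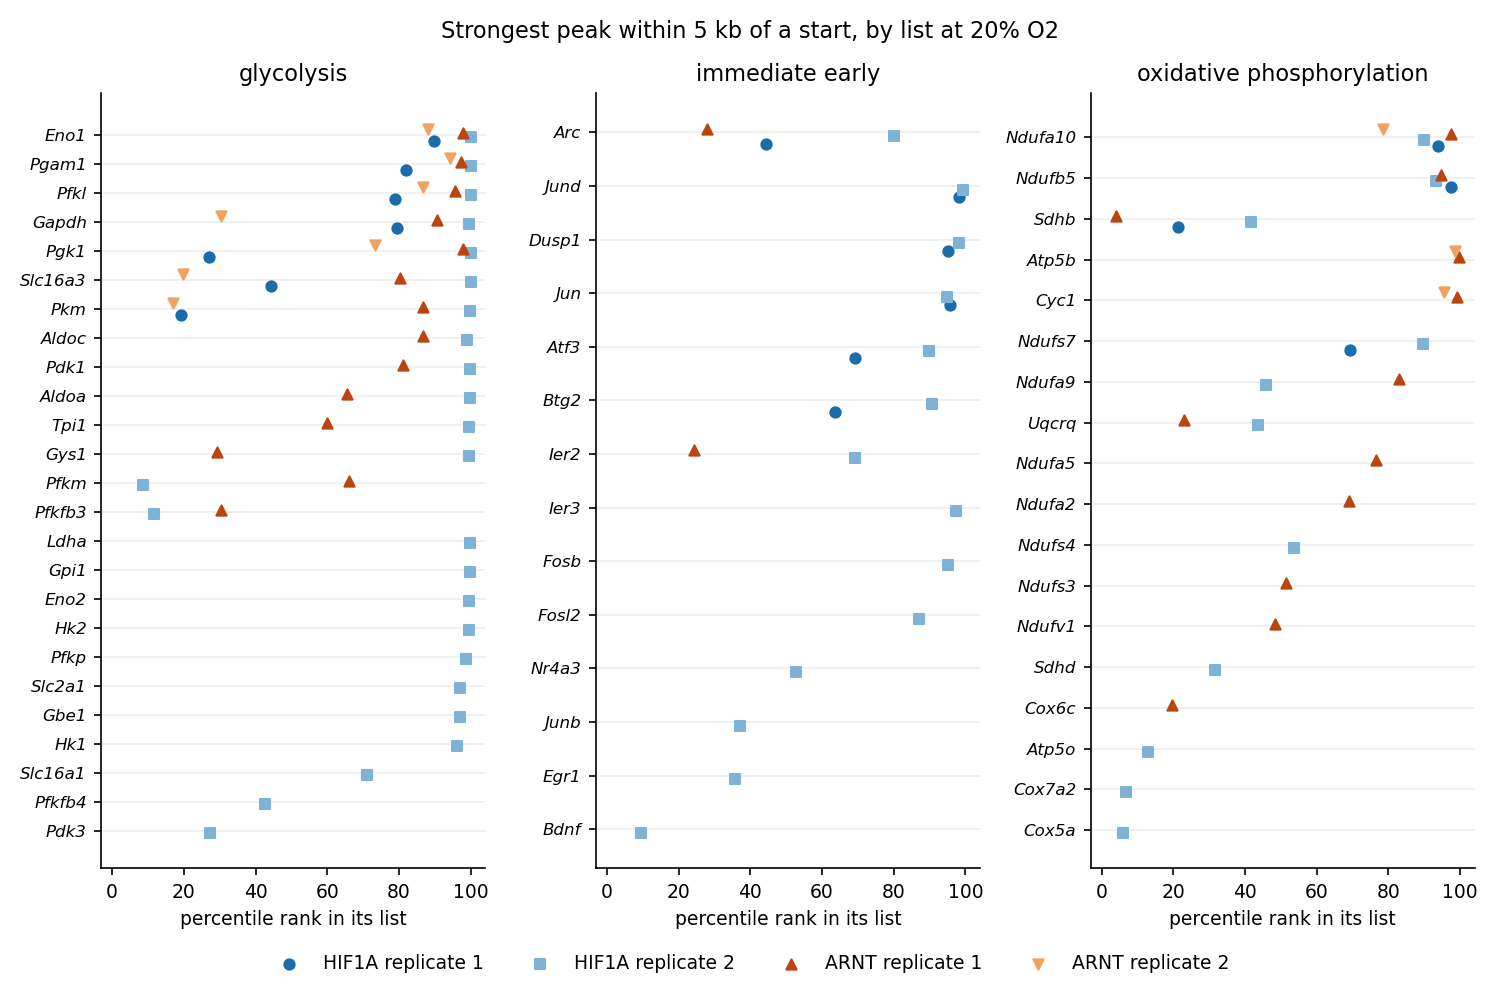
Percentile rank of the strongest peak within 5 kb of a start in each of the 4 lists, for members of 3 gene lists with a peak in at least 1 list (1 member is not shown); a missing symbol means no peak. Glycolysis members crowd near 100 in HIF1A replicate 2, Jund, Dusp1 and Jun carry high HIF1A ranks without ARNT, and Atp5b and Cyc1 carry ARNT alone.

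In the clock and bHLH-PAS lists 1 gene was ARNT only. Arntl, which encodes the clock protein BMAL1, a close relative of ARNT, had ARNT ranks of 98.6 and 94.99 and no HIF1A peak. It was the only gene of the 19 in the bHLH-PAS list with an ARNT peak, and 1 of 5 in ARNT replicate 1 among 21 clock genes, of which 1 and 12 had a HIF1A peak. Among 21 genes of E-box factors with a zipper, 4 and 14 had a HIF1A peak and 6 and 3 an ARNT peak. Srebf1 (73.7 and 97.1 against 66.6 and 73.9) and Mxd1 had all 4 lists, Srebf2 (93.1 and 89.8) and Usf1 (81.5 and 96.7) were HIF1A only, and Mlx (74.0 and 72.0) was ARNT only.

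The remaining lists are given by their counts and leading members. Ribosomal protein genes had a HIF1A peak for 6 and 20 of 50 genes and an ARNT peak for 14 and 2, with Rps9, Rps29 and Rpl13a HIF1A only, Rpl9 ARNT only and Rpl18 in all 4 lists. Lysosomal genes had 2 and 13 of 24 with HIF1A and 8 and 4 with ARNT, with Ctsb ARNT only (68.9 and 63.0). Nucleolar genes had 0 and 6 of 20 with HIF1A and 6 and 1 with ARNT, and Polr1b had HIF1A replicate 2 and both ARNT lists. Histone genes had 0 and 6 of 22 with HIF1A and 7 and 1 with ARNT. H2ax, the histone of DNA damage marks, had ARNT ranks of 98.2 and 91.8 and 10.9 in HIF1A replicate 2. The histone genes H3c1, H4c1 and H4c2 had equal ranks in HIF1A replicate 2 (58.4) and in ARNT replicate 1 (24.2). Whether they share these peaks was not looked up. Of 32 genes of other tissues, 2 and 3 had a HIF1A peak and 3 and 0 an ARNT peak, and the highest was Apoa2, with 99.1 and 99.0 for HIF1A and 13.1 in ARNT replicate 1.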

How the data were processed

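The authors deposited 1 peak list per ChIP sample, made with BWA, Picard and MACS2 on build mm10, per the submitters' processing notes. Versions, settings and filters, not given in the sources used here, could not be checked. Per the sample names in the files, peaks were called separately for each sample against the inputs stated above. The deposited score in column 5 has no named scale, so it was used only as a percentile rank within its own list and describes the authors' own value for a peak. Positions of 1 bp were widened by 75 bp to each side. Distances were measured from the starts of 17274 protein-coding genes in the RefSeq promoter table (GRCm38.p6) and from either end of the other 4357; exons and introns were not used here. All 426 entries of the 19 gene lists matched a symbol.

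Samples were grouped by title. Counts and shares per list were compared between antibodies by a two-sided exact permutation test over 6 arrangements, and shares carry 95% Wilson intervals. Overlap code was tested on simulated lists. Members and lists were chosen with earlier results of these data known. Named were the 8 highest sites of each class by mean rank, the 8 widest rank gaps each way at shared sites, up to 8 members of each gene list with a peak in 2 or more lists, and always Ldha, Pgk1, Bnip3, Egln3, Vegfa, Nos1, Arnt and Hif1a. Other genes named were chosen after their values were seen. Some genes that the rule takes are left out of the text. Alternatives changed the overlap, the window, the list length, the distance and the lists used. Python 3.11.15, numpy 2.4.6, pandas 2.3.3 and scipy 1.17.1 were used.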

Additional observations from a re-analysis of the deposited data

How the results depend on the processing

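An overlap of 50% of the shorter peak, 1 bp entries left at 1 bp, or a window of 100 bp kept the site counts within 1.5 times. The share of HIF1A replicate 2 peaks with an ARNT peak was 33.7%, and 31.4% under the 50% overlap and 30.8% without widening, where 70.3% of ARNT regions had a HIF1A replicate 2 peak. In the upper 50% of each list there were 321 sites with both subunits and 1083 with HIF1A only, 41.5% and 53.2% of ARNT regions had a peak of HIF1A replicates 1 and 2, and 46.5% and 26.4% of their peaks had an ARNT peak. With the 1808 highest peaks of each list these values were 295, 429, 40.6%, 36.6%, 45.9% and 36.3%, and 46 genes had both subunits and 154 HIF1A only. Within 1 kb of a start these genes numbered 97 and 198, and within 20 kb 522 and 554.

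With single lists left out, sites with both subunits ranged from 967 to 2770, HIF1A only sites from 1753 to 8857 and ARNT only sites from 451 to 2552. Genes with both subunits ranged from 185 to 508, with HIF1A only from 308 to 2617 and with ARNT only from 321 to 1026. The share near starts kept its direction, from -20.9 to -4.80 points, and so did the log2 ratio of peak numbers, from 0.23 to 2.23. With labels exchanged only within replicate numbers (replicate block), the log2 ratio of 1.23 had an exact permutation p of 1 and the near-start difference of -12.8 points one of 0.5; the labels give shared numbers but no shared culture or day. Among the highest 1808 peaks that difference was -15.6 points, and in the upper 50% it was -19.4 points, each with an exact permutation p of 0.333. Having 2 lists per antibody and no known depth limits every comparison: a site missing from the short ARNT replicate 2 list may lie below its threshold, and no value here measures how many peaks depth would add.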
